A study of Mus musculus with 31 samples.

Results

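The 5 genes of cytosolic RNA sensing described here were followed through both experiments of the series. They were *Ddx58* (RIG-I), *Ifih1* (MDA5), *Dhx58* (LGP2), *Mavs* and *Ddx60*, taken by gene name from the microglial table and by the same Ensembl identifier from the hippocampal table. All 5 were present among the 54532 genes of the microglial table and the 48795 genes of the hippocampal table, and all 5 had enough reads to be tested in both (13675 and 16453 genes tested). The hippocampal experiment compared 7 non-transgenic (Ntg) mice (3 females, 4 males) with 6 *P301S* mice (3 females, 3 males), all 8 to 9 months old, with 1 library per mouse. *P301S* mice carry a transgene for human tau with the *P301S* mutation, and the *Cgas* genotype of these mice is not in the labels. The microglial experiment used primary microglia grown in culture from the cortices of newborn mice, wild type (*Cgas*+/+) or lacking cyclic GMP-AMP synthase in every cell (*Cgas*-/-). Cells of each genotype received vehicle, fibrils of tau, or HT-DNA (DNA of herring testis, an agonist of the DNA sensor cGAS), with 3 libraries in each of the 6 groups. The labels do not say whether the 3 libraries of a group came from separate cultures, so p-values measure the spread between these libraries only.

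RIG-I and MDA5 are helicases that bind viral or misplaced double-stranded RNA in the cytosol. Both then engage the adaptor MAVS on the mitochondrial surface, which passes the signal through the kinases TBK1 and IKKε to interferon regulatory factors and type I interferon. LGP2 is the third helicase of the family, lacks the signalling domains and tunes the other two, and DDX60 is a related helicase described as a cofactor of RIG-I. The helicases are known interferon-stimulated genes, whereas *Mavs* is known as a constitutively expressed adaptor, and microglia are the main immune cells of brain tissue.

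Promoters were read from RefSeq (GRCm38.p6), which gave an entry for 4 of the 5 genes, with no entry for *Dhx58*. The motif searched was the core of the interferon-stimulated response element, GAAANNGAAA, on both strands from 250 bases before to 50 bases after the start. It was in the windows of *Ddx60*, *Ifih1* and *Ddx58* and not in that of *Mavs*, and in 3.44% of all 32851 promoters of this length. The 4 sequences show the matches and, for *Mavs*, the 120 bases before the start, which are part of its searched window. Most promoters lack the motif, as *Mavs* does, and whether it has a part in the results was not tested. Capitals mark the match and all sequences are on the strand of the gene. The match in *Ddx58* lies on the other strand and therefore reads as the reverse complement of the motif.
*Ddx60*, chr8:61927967-61928086, plus strand, the 120 bases before the start: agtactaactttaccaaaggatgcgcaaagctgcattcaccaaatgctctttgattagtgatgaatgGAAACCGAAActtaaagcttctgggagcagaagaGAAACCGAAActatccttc
*Ifih1*, chr2:62646206-62646235, minus strand, 30 bases after the start: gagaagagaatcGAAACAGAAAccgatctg
*Ddx58*, chr4:40239806-40239835, minus strand, 30 bases across the start: gccctgaggcagTTTCGATTTCctatggcc
*Mavs*, chr2:131233943-131234062, plus strand, the 120 bases before the start: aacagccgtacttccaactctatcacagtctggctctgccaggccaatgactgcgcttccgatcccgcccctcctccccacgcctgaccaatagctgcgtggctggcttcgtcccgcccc

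*Ddx60* held 2 matches, at positions -53 to -44 and -19 to -10 before the start, while *Ifih1* held 1 at 33 to 42 after it and *Ddx58* held 1 at 3 to 12 after it. The 30 bases shown are positions 21 to 50 for *Ifih1* and -10 to 20 for *Ddx58*. None of the 4 promoters held the gamma-activated site TTCNNNGAA (8.30% of all promoters) or the kappa B site GGGANTTTCC (0.411%). In the GENCODE M21 annotation, *Ddx58* lies at chr4:40203773-40239828, *Ifih1* at chr2:62595798-62646255, *Dhx58* at chr11:100694884-100704271, *Mavs* at chr2:131234063-131248025 and *Ddx60* at chr8:61928087-62038244. The antisense gene *Dhx58os* overlaps *Dhx58* at chr11:100694884-100697520, and it had at most 17 counts in any microglial library. The non-coding gene *Gm45418* lies 58 bases before *Ddx60* on the opposite strand and had at most 36 counts in any microglial library.

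Between 17037459 and 25174764 reads were counted on genes per microglial library and between 25953296 and 35779977 per hippocampus. Levels are given as normalized CPM, in which a gene's count is taken relative to the TMM-scaled total of its library. *Cgas*, listed under its older symbol *Mb21d1*, had 23.2 ± 4.21 CPM in *Cgas*+/+ microglia with vehicle and 4.93 ± 0.748 CPM in *Cgas*-/- microglia with vehicle (SD, n = 3), so some reads remained in the libraries labelled *Cgas*-/-. The sources used here do not say which part of the gene is deleted, and reads of a 3′ end outside it would not check the deletion. *Mapt*, the tau gene, had 519 to 642 CPM in Ntg and 858 to 1125 CPM in *P301S* hippocampi. Marker genes of homeostatic microglia summed to between 3344 and 3681 CPM in *Cgas*+/+ libraries and to between 2141 and 2661 CPM in *Cgas*-/- libraries, and *Siglech* had 3 counts or fewer in every library of 3 groups. T-cell markers summed to at most 0.209 CPM. The 5 peripheral myeloid markers summed to 3.72 to 6.64 CPM in *Cgas*+/+ and 5.47 to 7.70 CPM in *Cgas*-/- libraries. Of these, *S100a9*, *Ly6c2* and *Plac8* had 3 counts or fewer throughout. Of the 2 that were tested, 1 was called higher in *Cgas*-/- cells with vehicle, with tau and with HT-DNA. Markers of disease-associated microglia summed to 23976.5 to 26131.6 CPM in *Cgas*+/+ and 25559.9 to 29003.3 CPM in *Cgas*-/- libraries. Of these 7 markers, 4 were called higher and 1 lower in *Cgas*-/- cells with vehicle and with tau. In the presence of HT-DNA 2 were called higher and 3 lower. Sums of astrocyte and neuron markers overlapped between the genotypes, while those of oligodendrocyte, endothelial and fibroblast markers were lower in *Cgas*-/- libraries. Oligodendrocyte markers summed to 55.8 to 105 CPM in *Cgas*+/+ and 43.3 to 48.4 CPM in *Cgas*-/- libraries, with *Mog* and *Mobp* at 3 counts or fewer in the latter. Endothelial markers, which *Flt1* carried almost alone, summed to 86.6 to 98.1 CPM with vehicle, 98.9 to 124 CPM with tau and 275 to 278 CPM with HT-DNA in *Cgas*+/+ cells, against 20.7 to 28.2 CPM in *Cgas*-/- cells. Fibroblast markers summed to 0.982 to 5.06 CPM and 0.0521 to 0.441 CPM in the 2 genotypes. The part of these differences in the results that follow was not tested, and in bulk samples fewer cells of a type and less RNA per cell cannot be told apart.

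Without any stimulus, the 4 helicase genes were already far lower in *Cgas*-/- than in *Cgas*+/+ microglia. *Ddx58*, the RIG-I sensor of short and 5′-triphosphate RNA, had 188, 113 and 155 CPM in the 3 *Cgas*+/+ libraries with vehicle and 12.1, 15.2 and 13.4 CPM in the 3 *Cgas*-/- libraries. *Ifih1*, the MDA5 sensor of long double-stranded RNA, had 178, 110 and 138 CPM against 20.9, 24.9 and 21.3 CPM. *Dhx58* had 100.5, 66.6 and 81.5 CPM against 7.09, 8.29 and 9.24 CPM. For the helicase genes the *Cgas*+/+ libraries with vehicle had the widest relative spread of the 6 groups, and the library with the most *Ddx58*, replicate 1, also had the most *Ifih1*, *Dhx58* and *Ddx60*. *Ddx60* had 86.5, 46.5 and 64.8 CPM in the *Cgas*+/+ libraries and 5.97, 5.99 and 5.94 CPM in the *Cgas*-/- libraries. *Mavs*, the adaptor, had 45.5, 47.1 and 47.5 CPM against 33.9, 33.1 and 32.7 CPM. No *Cgas*-/- library reached the lowest *Cgas*+/+ library for any of the 5 genes. Here and below, separation of groups or mice is described for these genes only, and its share over all genes was not counted.

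All 5 genes were lower in *Cgas*-/- cells with vehicle by edgeR's quasi-likelihood test, as were 27.3% of all genes tested. The fold change on the log2 scale was -3.48 ± 0.12 for *Ddx58* (SE, adjusted p = 5.78e-19, 11.2-fold lower), -3.46 ± 0.16 for *Ddx60* (1.23e-16, 11.04-fold lower), -3.32 ± 0.12 for *Dhx58* (7.07e-19, 10.01-fold lower) and -2.67 ± 0.12 for *Ifih1* (5.98e-17, 6.35-fold lower). *Mavs* differed far less, by -0.49 ± 0.06 (adjusted p = 2.21e-07, 1.40-fold lower). The genes were called in the same direction when any 1 of the 18 libraries was left out.

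**Figure D1:**
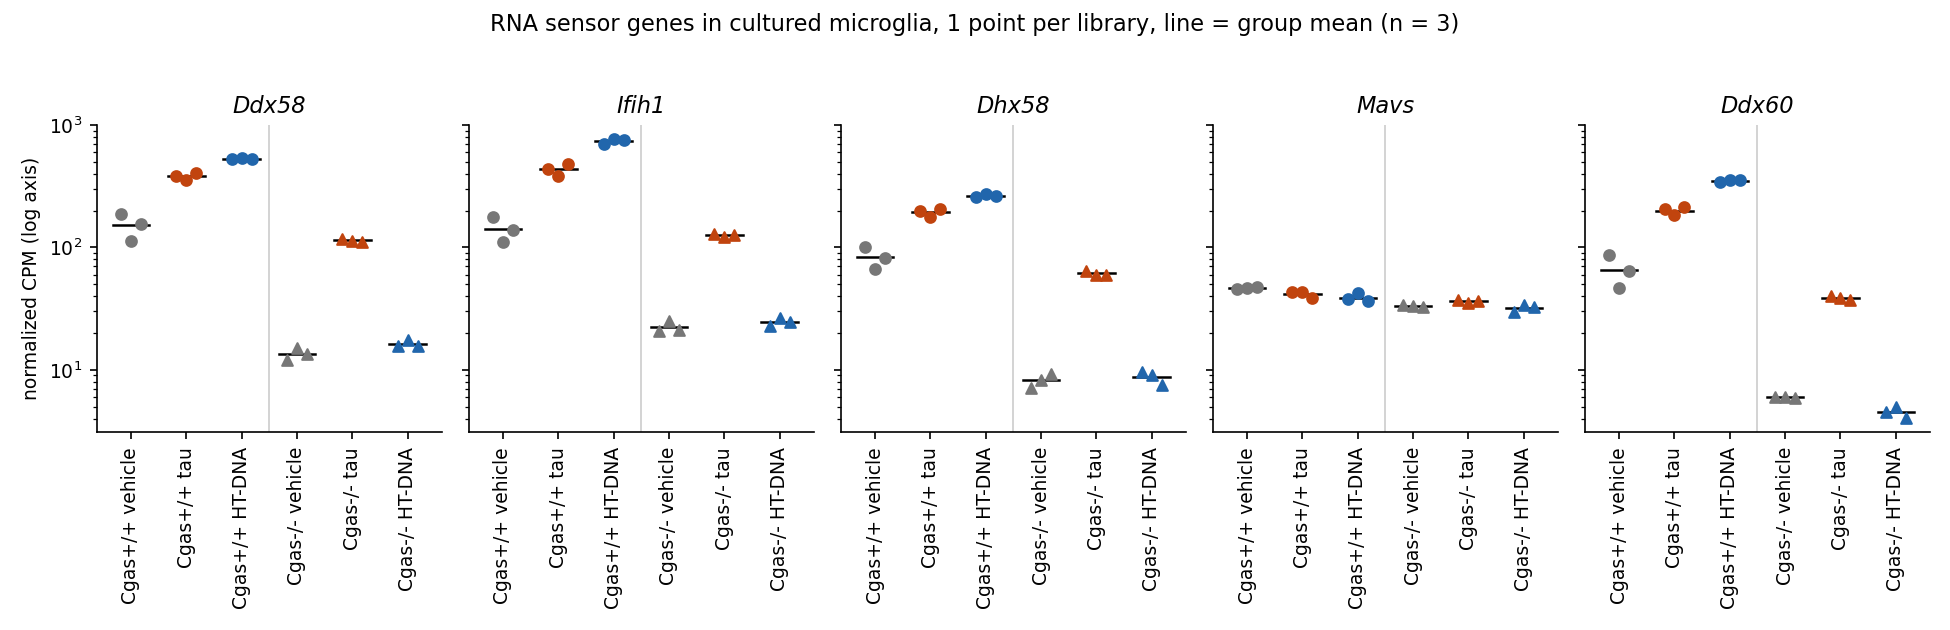
Normalized CPM (log axis) of the 5 genes in each microglial library, with circles for Cgas+/+ and triangles for Cgas-/- cells, grey for vehicle, red for tau fibrils and blue for HT-DNA, and a line at the mean of 3 libraries. The helicase genes share the order of the 4 highest groups, and Ddx60 runs from 350 CPM in Cgas+/+ to 4.50 CPM in Cgas-/- cells with HT-DNA, while Mavs stays between 29.9 and 47.5 CPM.

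Tau fibrils raised the 4 helicase genes in *Cgas*+/+ microglia. *Ddx58* had 382, 352 and 406 CPM in the 3 libraries with tau, *Ifih1* had 441, 383 and 477 CPM, *Dhx58* had 199.9, 179 and 204 CPM and *Ddx60* had 205, 183 and 213 CPM. Each of these values lay above the highest library with vehicle. The 4 helicase genes were called higher, a direction in which 15.8% of all genes tested were called. The rise was 3.05-fold for *Ifih1* (log2 1.61 ± 0.10, adjusted p = 4.14e-13), 3.04-fold for *Ddx60* (log2 1.60 ± 0.11, 2.33e-12), 2.51-fold for *Ddx58* (log2 1.33 ± 0.10, 9.07e-12) and 2.34-fold for *Dhx58* (log2 1.23 ± 0.09, 4.71e-12). *Mavs* went the other way, with 43.1, 43.5 and 38.4 CPM, all below the vehicle libraries, and a log2 fold change of -0.16 ± 0.06 (adjusted p = 0.0486). In the same direction 12.2% of all genes were called, and the call of *Mavs* was lost with the DESeq2 Wald test (adjusted p = 0.0678), with RLE scaling (0.0529) and without the filter on low counts (0.0625). It was also lost in 15 of the 18 fits that left out 1 library.

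HT-DNA raised the same 4 genes further. In the 3 *Cgas*+/+ libraries with HT-DNA, *Ddx58* had 523, 538 and 523 CPM, *Ifih1* had 704, 769 and 751 CPM, *Dhx58* had 256, 271 and 263 CPM and *Ddx60* had 340, 356 and 355 CPM. The 4 genes were again called higher, beside 22.8% of all genes tested. The largest rises were those of *Ddx60* (5.31-fold, log2 2.41 ± 0.11, adjusted p = 1.24e-16) and *Ifih1* (5.22-fold, log2 2.38 ± 0.10, 3.88e-17), followed by *Ddx58* (3.48-fold, log2 1.80 ± 0.10, 4.28e-15) and *Dhx58* (3.18-fold, log2 1.67 ± 0.09, 1.90e-15). *Mavs* fell, with 37.6, 42.7 and 36.4 CPM and a log2 fold change of -0.26 ± 0.06 (adjusted p = 0.000999), and it was called lower beside 24.7% of all genes. That call held when any 1 library was left out.

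The libraries with tau lay between those with vehicle and those with HT-DNA for every helicase gene, without overlap on either side. Compared directly, tau against HT-DNA, the 4 genes were called lower, as were 17.8% of all genes tested. The difference on the log2 scale was -0.81 ± 0.10 for *Ddx60* (adjusted p = 2.63e-07), -0.77 ± 0.10 for *Ifih1* (2.06e-07), -0.47 ± 0.09 for *Ddx58* (0.000172) and -0.44 ± 0.08 for *Dhx58* (9.63e-05), so none passed a call that also required a log2 change of 1. For *Mavs* it was 0.10 ± 0.06 with overlapping libraries (adjusted p = 0.258).

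HT-DNA did not produce this rise in *Cgas*-/- microglia. *Ddx58* had 15.6, 17.4 and 15.6 CPM with HT-DNA, just above its vehicle libraries, and *Ifih1* had 22.8, 26.4 and 24.4 CPM, overlapping them. *Dhx58* had 9.64, 9.15 and 7.57 CPM, and *Ddx60* had 4.56, 4.93 and 4.01 CPM, just below its vehicle libraries. No member was called (0 of 5), against 1.32% of all genes tested in either direction, no member had an unadjusted p under 0.05 and DESeq2 called 0. The log2 fold changes were 0.26 ± 0.15 for *Ddx58* (adjusted p = 0.498), 0.14 ± 0.13 for *Ifih1* (0.736), 0.08 ± 0.16 for *Dhx58* (0.902), -0.05 ± 0.07 for *Mavs* (0.857) and -0.41 ± 0.23 for *Ddx60* (0.507). Without the filter on low counts 2 members were called, *Ddx58* as higher (adjusted p = 0.0342) and *Ddx60* as lower (0.0292). The response to HT-DNA itself differed between the genotypes for the 4 helicase genes, by -2.81 ± 0.26 for *Ddx60* (adjusted p = 1.14e-09), -2.25 ± 0.16 for *Ifih1* (1.24e-11), -1.59 ± 0.18 for *Dhx58* (4.39e-08) and -1.54 ± 0.18 for *Ddx58* (4.86e-08), beside 16.6% of all genes with a negative interaction. For *Mavs* the interaction was 0.22 ± 0.09 (adjusted p = 0.0655).

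With HT-DNA present, the genotypes stood furthest apart for the helicase genes. All 5 genes were lower in *Cgas*-/- cells, as were 30.1% of all genes tested. *Ddx60* was 77.6-fold lower (log2 -6.28 ± 0.15, adjusted p = 2.17e-23), from 350 ± 8.94 to 4.50 ± 0.464 CPM (SD, n = 3). *Ddx58* was 32.5-fold lower (log2 -5.02 ± 0.12, 1.72e-23), and *Dhx58* and *Ifih1* were each 30.1-fold lower (log2 -4.91 ± 0.11 and -4.91 ± 0.12). *Mavs* was 1.21-fold lower (log2 -0.27 ± 0.06, adjusted p = 0.000561), a smaller difference than with vehicle.

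Tau fibrils, in contrast, raised the helicase genes in *Cgas*-/- microglia too. *Ddx58* had 118, 113 and 111 CPM in the 3 *Cgas*-/- libraries with tau, *Ifih1* had 129, 123 and 126 CPM, *Dhx58* had 64.6, 59.7 and 59.7 CPM and *Ddx60* had 39.9, 38.6 and 37.01 CPM. Every one of these libraries lay well above those of *Cgas*-/- cells with vehicle or HT-DNA and below every *Cgas*+/+ library with tau. The 4 genes were called higher than with vehicle, beside 11.2% of all genes tested. The rise was 8.39-fold for *Ddx58* (log2 3.07 ± 0.12, adjusted p = 2.89e-17), 7.41-fold for *Dhx58* (log2 2.89 ± 0.12, 6.56e-17), 6.45-fold for *Ddx60* (log2 2.69 ± 0.16, 2.25e-13) and 5.62-fold for *Ifih1* (log2 2.49 ± 0.12, 7.40e-16). *Mavs* had 36.9, 35.2 and 36.9 CPM, above its 3 vehicle libraries but not called (log2 0.13 ± 0.06, adjusted p = 0.195).

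The size of the tau response relative to genotype depended on the scale. As a fold change it was larger in *Cgas*-/- cells for the 4 helicase genes, and the interaction was above 0 for all 5 genes, a direction in which it was called for 3.61% of all genes tested. The interaction was 1.74 ± 0.16 on the log2 scale for *Ddx58* (adjusted p = 1.05e-08), 1.66 ± 0.15 for *Dhx58* (1.34e-08), 1.09 ± 0.20 for *Ddx60* (0.000982), 0.88 ± 0.15 for *Ifih1* (0.000365) and 0.29 ± 0.09 for *Mavs* (0.0433). The interaction of *Mavs* joined a fold change below 0 in *Cgas*+/+ cells to one above 0 in *Cgas*-/- cells, and its call was lost with RLE scaling (0.0542) and without the filter (0.0530). As a difference in CPM the tau response of the helicase genes was smaller in *Cgas*-/- cells. *Ddx58* gained 228 ± 26.8 CPM in *Cgas*+/+ and 100.4 ± 2.35 CPM in *Cgas*-/- cells (SE), which is 44.0% as much. The gain of *Cgas*-/- cells was 47.7% of that of *Cgas*+/+ cells for *Dhx58*, 35.4% for *Ifih1* and 24.2% for *Ddx60*. *Ddx60* thus had the smallest share of the *Cgas*+/+ gain among the helicase genes, at 32.5 ± 0.849 CPM against 134 ± 14.6 CPM, and these shares were not tested against each other.

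**Figure D2:**
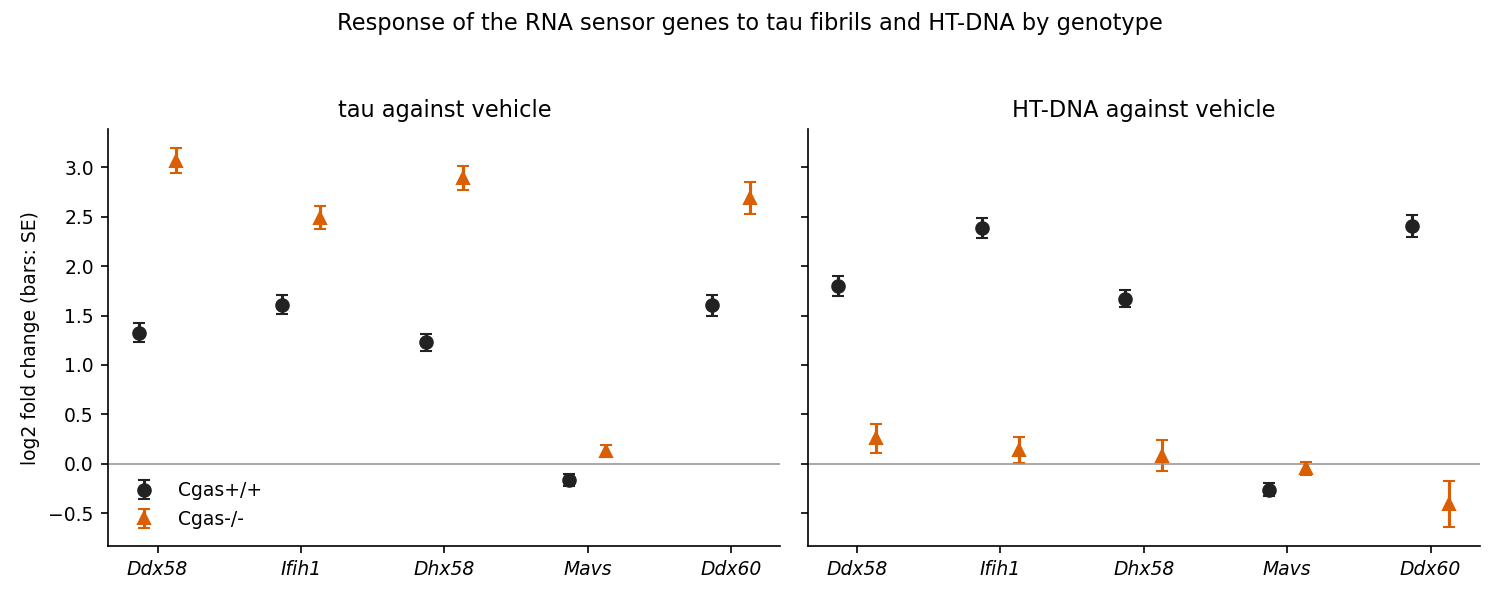
Log2 fold change against vehicle of the 5 genes with tau fibrils (left) and HT-DNA (right), with black circles for Cgas+/+, orange triangles for Cgas-/- cells and bars for the SE of the edgeR fit over 18 libraries. With tau the helicase genes sit between 1.23 and 1.61 in Cgas+/+ and between 2.49 and 3.07 in Cgas-/- cells, and with HT-DNA between 1.67 and 2.41 and between -0.41 and 0.26.

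**Figure D3:**
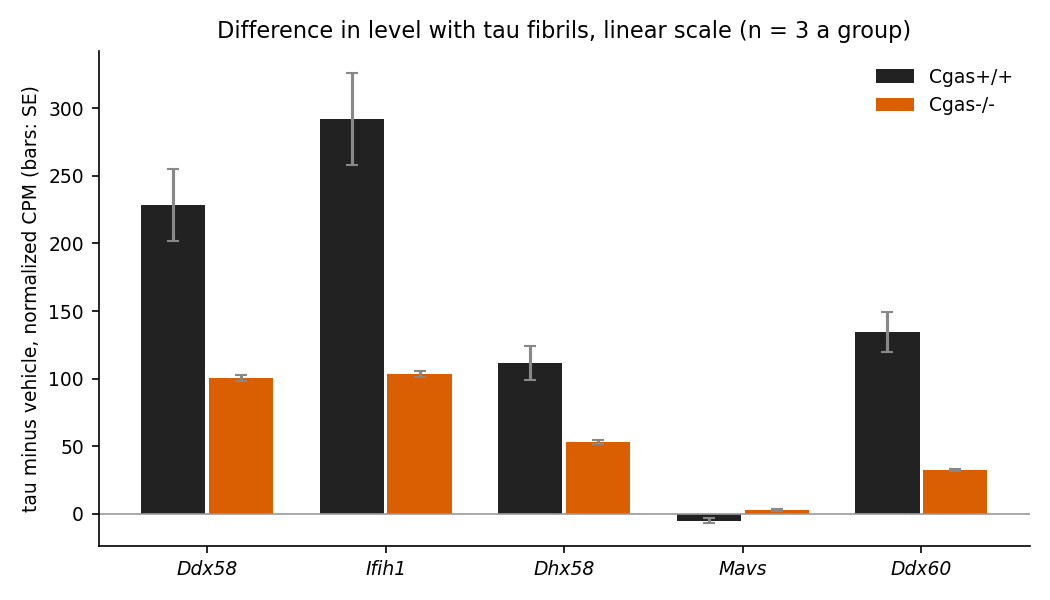
Mean normalized CPM with tau minus that with vehicle, on a linear axis, for Cgas+/+ (black) and Cgas-/- (orange) microglia with 3 libraries a group and bars for the SE of the difference. For the 4 helicase genes the orange bar is lower than the black one, at 100.4 against 228 CPM for Ddx58 and 32.5 against 134 CPM for Ddx60.

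With tau present, all 5 genes remained lower in *Cgas*-/- than in *Cgas*+/+ cells, as were 26.2% of all genes tested. *Ddx60* was 5.20-fold lower (log2 -2.38 ± 0.11, adjusted p = 4.25e-16), *Ifih1* 3.45-fold lower (log2 -1.79 ± 0.10, 1.26e-14), *Ddx58* 3.34-fold lower (log2 -1.74 ± 0.10, 1.28e-14) and *Dhx58* 3.17-fold lower (log2 -1.66 ± 0.09, 3.84e-15). For *Mavs* the difference was -0.20 ± 0.06 (adjusted p = 0.0101), and its call was lost when *Cgas*+/+ tau replicate 2 was left out (adjusted p = 0.0646).

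In the order of mean levels the helicase genes were highest with HT-DNA in *Cgas*+/+ cells, followed by tau in *Cgas*+/+ cells, vehicle in *Cgas*+/+ cells, tau in *Cgas*-/- cells and then the other 2 *Cgas*-/- groups. The middle neighbours, *Cgas*+/+ with vehicle and *Cgas*-/- with tau, were compared after their levels had been seen. *Ddx60* (log2 -0.78 ± 0.12, adjusted p = 2.68e-06), *Dhx58* (-0.43 ± 0.09, 0.000196), *Ddx58* (-0.41 ± 0.10, 0.000843) and *Mavs* (-0.36 ± 0.06, 1.82e-05) were lower in *Cgas*-/- cells with tau, 4 of the 5 genes beside 24.5% of all genes tested. The libraries of *Ddx58* overlapped, since *Cgas*+/+ vehicle replicate 2 had 113 CPM. *Ifih1* did not pass (log2 -0.17 ± 0.10, adjusted p = 0.151), and its call depended on the filter and on single vehicle libraries. It passed without the filter on low counts (adjusted p = 0.00291). Its log2 difference was 0.03 without *Cgas*+/+ vehicle replicate 1, and -0.33 without replicate 2, where it passed (adjusted p = 0.00103).

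The 4 helicase genes followed each other closely across the microglial libraries. Pearson's r of log2(CPM + 1) over the 18 libraries, which share 6 group means, was 0.999 for *Ddx58* and *Dhx58*, 0.995 for *Ddx60* and *Ifih1* and no lower than 0.990 for any pair of the 4. For *Mavs* and each helicase gene it was 0.625 to 0.695. Among all genes ordered by likeness to *Ddx58*, *Dhx58* ranked 4, *Ifih1* 65 and *Ddx60* 69, so many genes outside the 4 were closer. The genes most like *Ddx58* were *Eif2ak2* (the RNA-activated kinase PKR, 0.999), *Rnf213* (0.999) and *Ifi203* (0.999), and those most like *Dhx58* were *Ddx58*, *Rnf213* and *Eif2ak2*. *Ifih1* was most like *Ifi205* (0.999), *Phf11b* (0.998) and *Ifi47* (0.998), and *Ddx60* most like *Mndal* (0.998), *Dck* (0.997) and *Gbp9* (0.997). *Ifi203*, *Ifi205* and *Mndal* belong to 1 family of similar genes, among which reads could be divided differently by another counting. *Mavs* was most like *Rere* (0.945), *Zmynd8* (0.932) and *Rps6ka1* (0.928), none of which was among the nearest genes of a helicase.

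Genes that act around the sensors were counted in 6 lists, 91 genes in all, of which 89 were tested in microglia. With tau in *Cgas*+/+ cells 37 were higher and 10 lower, which is 41.6% and 11.2% beside 15.8% and 12.2% of all genes tested. With HT-DNA 51 were higher and 14 lower, 57.3% and 15.7% beside 22.8% and 24.7%. With tau in *Cgas*-/- cells 31 were higher and 5 lower, 34.8% and 5.62% beside 11.2% and 5.48%. The share called lower with tau was thus near that of all genes in both genotypes. With HT-DNA in *Cgas*-/- cells 0 were called by edgeR, where 10 had an unadjusted p under 0.05 and DESeq2 called 1. The median log2 fold change of the lists in these 4 comparisons was 0.12, 0.17, 0.07 and 0.03, beside -0.01, -0.03, 0.01 and 0.01 over all genes tested. The interaction of tau with genotype was called above 0 for 11 list genes and below 0 for 7, 12.4% and 7.87% beside 3.61% and 3.31% of all genes.

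Among the cofactors and ubiquitin ligases that act on the sensors, 7 of 14 tested genes rose with tau in *Cgas*+/+ cells and 3 fell, 50% and 21.4% beside 15.8% and 12.2% of all genes. Those that rose included *Rnf135*, the ubiquitin ligase Riplet of RIG-I (log2 0.74 ± 0.09, adjusted p = 2.38e-07), and *Trim14*, an adaptor at MAVS (0.65 ± 0.06, 9.71e-10). In *Cgas*-/- cells 5 rose and 2 fell with tau, 35.7% and 14.3% beside 11.2% and 5.48% of all genes. The rises were led by *Trim14* (1.28 ± 0.07, 7.53e-14) and *Trim25*, which also ubiquitinates RIG-I (1.05 ± 0.06, 5.47e-14). The larger fold in *Cgas*-/- cells was itself called for both (interactions 0.62 ± 0.10 and 0.74 ± 0.08). *Ywhah*, a 14-3-3 protein that carries MDA5, fell with tau in both genotypes (-0.30 ± 0.04 and -0.18 ± 0.04).

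Of the 25 genes of the MAVS platform and its kinases, 11 rose and 3 fell with tau in *Cgas*+/+ cells, 44.0% and 12% beside 15.8% and 12.2% of all genes. *Irf7*, the interferon regulatory factor that amplifies the response, rose by 1.57 ± 0.12 (adjusted p = 1.26e-11) and *Ikbke*, the kinase IKKε, by 1.16 ± 0.06 (2.64e-14). HT-DNA raised *Irf7* more (2.32 ± 0.12), while *Ikbke* was higher with tau than with HT-DNA (0.74 ± 0.06, adjusted p = 1.20e-10). In *Cgas*-/- cells tau raised 9 genes and lowered 0 by edgeR, 36% and 0% beside 11.2% and 5.48% of all genes. *Irf7* rose in these cells from 4.31 ± 0.594 to 123 ± 11.2 CPM (log2 4.83 ± 0.17, adjusted p = 4.46e-18). *Ikbke* rose there by 1.13 ± 0.06 from a level with vehicle that was higher than in *Cgas*+/+ cells (0.54 ± 0.06, adjusted p = 6.05e-08). In this list the interaction of tau with genotype was above 0 for 1 gene, *Irf7* (3.26 ± 0.22), and below 0 for 4, among them *Casp8* (-0.43 ± 0.08) and *Tbk1*, the kinase TBK1 (-0.28 ± 0.06). These shares were 4% and 16%, beside 3.61% and 3.31% of all genes.

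Of 12 other RNA sensors and RNA-acting enzymes, 9 rose with tau in each genotype and 11 rose with HT-DNA in *Cgas*+/+ cells. The share with tau was 75.0%, beside 15.8% of all genes in *Cgas*+/+ and 11.2% in *Cgas*-/- cells. With HT-DNA it was 91.7% beside 22.8%. None was called lower in these 3 comparisons. *Zbp1*, a sensor of left-handed nucleic acid, rose with tau by 1.51 ± 0.11 in *Cgas*+/+ and by 4.02 ± 0.19 in *Cgas*-/- cells. *Tlr3*, the endosomal receptor of double-stranded RNA, rose by 1.44 ± 0.10 in *Cgas*+/+ cells with tau, and by 2.34 ± 0.10 with HT-DNA. *Eif2ak2* rose by 2.10 ± 0.09 in *Cgas*-/- cells with tau (adjusted p = 2.35e-16), and *Adar*, which edits double-stranded RNA, was among the 3 genes of this list whose fold with tau was larger in *Cgas*-/- cells (interaction 0.78 ± 0.08). The interaction was below 0 for 1 gene, *Tlr7*, an endosomal receptor of single-stranded RNA (-0.25 ± 0.07, adjusted p = 0.0257). Interactions above and below 0 made up 25% and 8.33% of this list, beside 3.61% and 3.31% of all genes.

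The remaining lists held RNA polymerase III and further helicases. Of 11 subunits of RNA polymerase III, which can transcribe cytosolic DNA into RNA seen by RIG-I, 1 rose and 2 fell with tau in *Cgas*+/+ cells, 9.09% and 18.2% beside 15.8% and 12.2% of all genes. With HT-DNA 3 rose and 5 fell, 27.3% and 45.5% beside 22.8% and 24.7% of all genes. *Polr3g* fell by 1.71 on the log2 scale with HT-DNA, from 7.76 ± 0.425 to 2.37 ± 0.499 CPM (adjusted p = 3.48e-09). Of 18 other DExD/H-box helicases, 2 rose and 2 fell with tau in *Cgas*+/+ cells, 11.1% each way and near the shares of all genes, and the largest rise was that of *Ddx24* (0.37 ± 0.05, adjusted p = 1.01e-06). In these cells 7 rose and 4 fell with HT-DNA, 38.9% and 22.2% beside 22.8% and 24.7% of all genes. The median of this list was 0.06 with tau and 0.08 with HT-DNA in *Cgas*+/+ cells.

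Of the genes of interferon and its signal, 7 of 9 tested rose with tau in each genotype, 77.8% beside 15.8% of all genes in *Cgas*+/+ and 11.2% in *Cgas*-/- cells. *Isg15*, a ubiquitin-like interferon-stimulated gene, rose by 2.02 ± 0.15 in *Cgas*+/+ and by 4.91 ± 0.23 in *Cgas*-/- cells. *Ifnb1*, the gene of interferon-β, was near the limit of detection with vehicle (0 to 10 counts) and with tau (1 to 11 counts) in *Cgas*+/+ cells and had 71 to 96 counts with HT-DNA. In *Cgas*-/- cells it had 0 counts in all libraries with vehicle or HT-DNA and at most 1 count with tau.

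In the hippocampus the helicase genes were higher in 4 of the 6 *P301S* mice. *Ddx58* had a median of 5.68 CPM in Ntg mice (lowest 3.98, highest 5.96) and 9.90 CPM in *P301S* mice (lowest 3.75, highest 15.4). *Ifih1* had 3.24 CPM (2.66 to 4.28) in Ntg and 8.19 CPM (3.40 to 12.9) in *P301S* mice, and *Dhx58* had 1.04 CPM (0.912 to 1.29) and 2.68 CPM (0.771 to 4.40). *P301S* mice 29, 36, 65 and 77 exceeded every Ntg mouse for each of *Ddx58*, *Ifih1*, *Dhx58* and *Ddx60*, and both sexes were among them. *P301S* mouse 43 lay within or below the Ntg range for these 4 genes, and mouse 63 did so for 3 of them, with *Dhx58* above the Ntg mice. *Ddx60* rested on 3 to 25 counts per Ntg mouse and 10 to 118 counts per *P301S* mouse, at 0.421 CPM (0.111 to 0.905) and 1.81 CPM (0.351 to 3.49). *Mavs* had 8.82 CPM (7.06 to 9.40) in Ntg and 9.36 CPM (8.61 to 12.1) in *P301S* mice, and only mice 29, 36 and 77 exceeded the Ntg mice.

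Of the 5 genes, 2 passed the test in hippocampi, where 1.39% of all genes tested were called higher. *Dhx58* was 2.46-fold higher in *P301S* mice (log2 1.30 ± 0.29, adjusted p = 0.0428) and *Ifih1* was 2.42-fold higher (log2 1.28 ± 0.28, 0.0413). *Ddx60* had the largest fold but did not pass (log2 1.95 ± 0.52, adjusted p = 0.0734), nor did *Ddx58* (0.90 ± 0.28, 0.111) or *Mavs* (0.21 ± 0.10, 0.329). The number of genes called depended on single mice. It was 4 by DESeq2 and without *P301S* mouse 43 or 63, 1 without mouse 77, and 0 without *P301S* mouse 29, 36 or 65 or any single Ntg mouse.

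The mean of the homeostatic microglial markers moved with these genes across the mice. The mean log2 CPM of the homeostatic microglial markers was 5.48 to 5.97 in *P301S* mice 29, 36, 65 and 77, 4.68 and 4.94 in mice 43 and 63, and 4.99 to 5.24 in Ntg mice. Astrocyte markers summed to 2151 to 2519 CPM in Ntg and 2518 to 5663 CPM in *P301S* mice, with the lowest sums in mice 43 and 63. Markers of disease-associated microglia summed to 1539 to 2219 CPM and 1530 to 3731 CPM, and T-cell markers to 0.218 to 1.09 CPM and 0.725 to 6.48 CPM. For the disease-associated sum *P301S* mouse 77 lay within the Ntg range at 2005 CPM, and 4 of these 7 markers were called higher. Of the other lists, 0 of 8 homeostatic and 1 of 6 astrocyte markers were called higher, beside 1.39% of all genes tested. The 1 T-cell marker that was tested was not called, and 4 of the 5 had 3 counts or fewer in every Ntg mouse. The part of the astrocyte, T-cell and disease-associated markers in the result was not tested. With the mean of the homeostatic markers as a covariate, the log2 fold change was 0.70 for *Ifih1* (adjusted p = 0.201), 0.70 for *Dhx58* (0.242), 0.32 for *Ddx58* (0.626), 0.90 for *Ddx60* (0.579) and 0.18 for *Mavs* (0.657), and 0 were called. With sex as a covariate 0 were called either, at nearly the same fold changes (adjusted p = 0.0551 for *Ifih1* and 0.0607 for *Dhx58*).

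**Figure D4:**
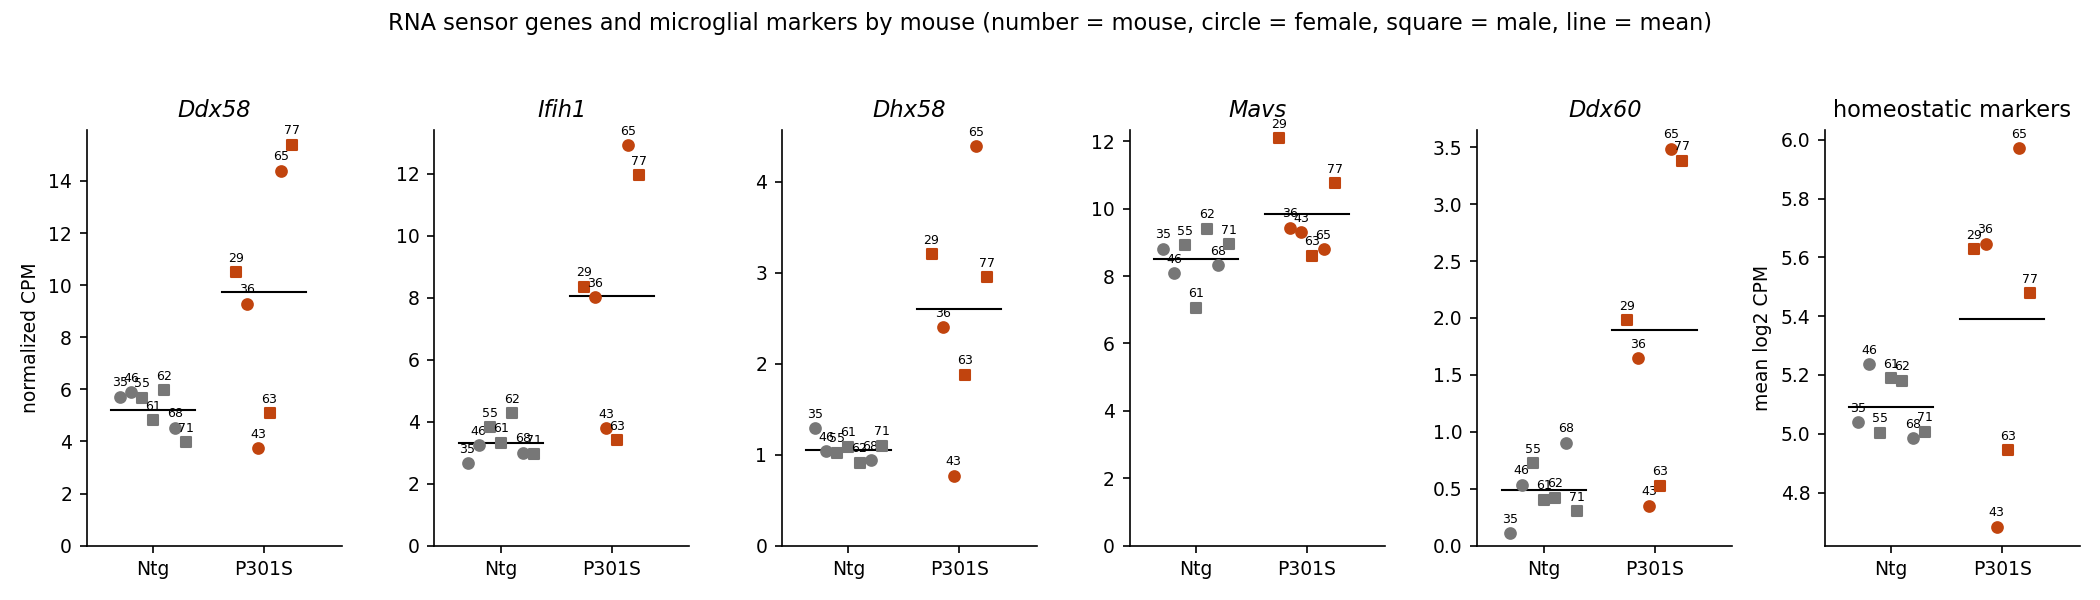
Normalized CPM of the 5 genes in each hippocampus (linear axes from 0) and, at the right, the mean log2 CPM of the homeostatic microglial markers (axis not from 0), with grey for Ntg and red for P301S mice, circles for females, squares for males, mouse numbers beside the points and a line at the mean. P301S mice 29, 36, 65 and 77 stand above the Ntg mice for the 4 helicase genes and for the markers, and mouse 43 is lowest of all for the markers at 4.68.

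Around the sensors, 4 of the 88 list genes tested in hippocampi were called higher (4.55% beside 1.39% of all genes) and 0 lower by edgeR, where 17 had an unadjusted p under 0.05 and DESeq2 called 11. These were *Irf7* (log2 2.42 ± 0.46, adjusted p = 0.0303), *Irf9* (1.24 ± 0.24, 0.0303), *Eif2ak2* (1.03 ± 0.21, 0.0326) and *Isg15* (2.57 ± 0.56, 0.0396). *Irf7* had 1.64 ± 0.398 CPM in Ntg and 8.78 ± 6.71 CPM in *P301S* mice (SD, n = 7 and 6). *Ifnb1* had at most 1 count in any hippocampus and was not tested. The median log2 fold change of the lists was 0.00, as over all genes.

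**Figure D5:**
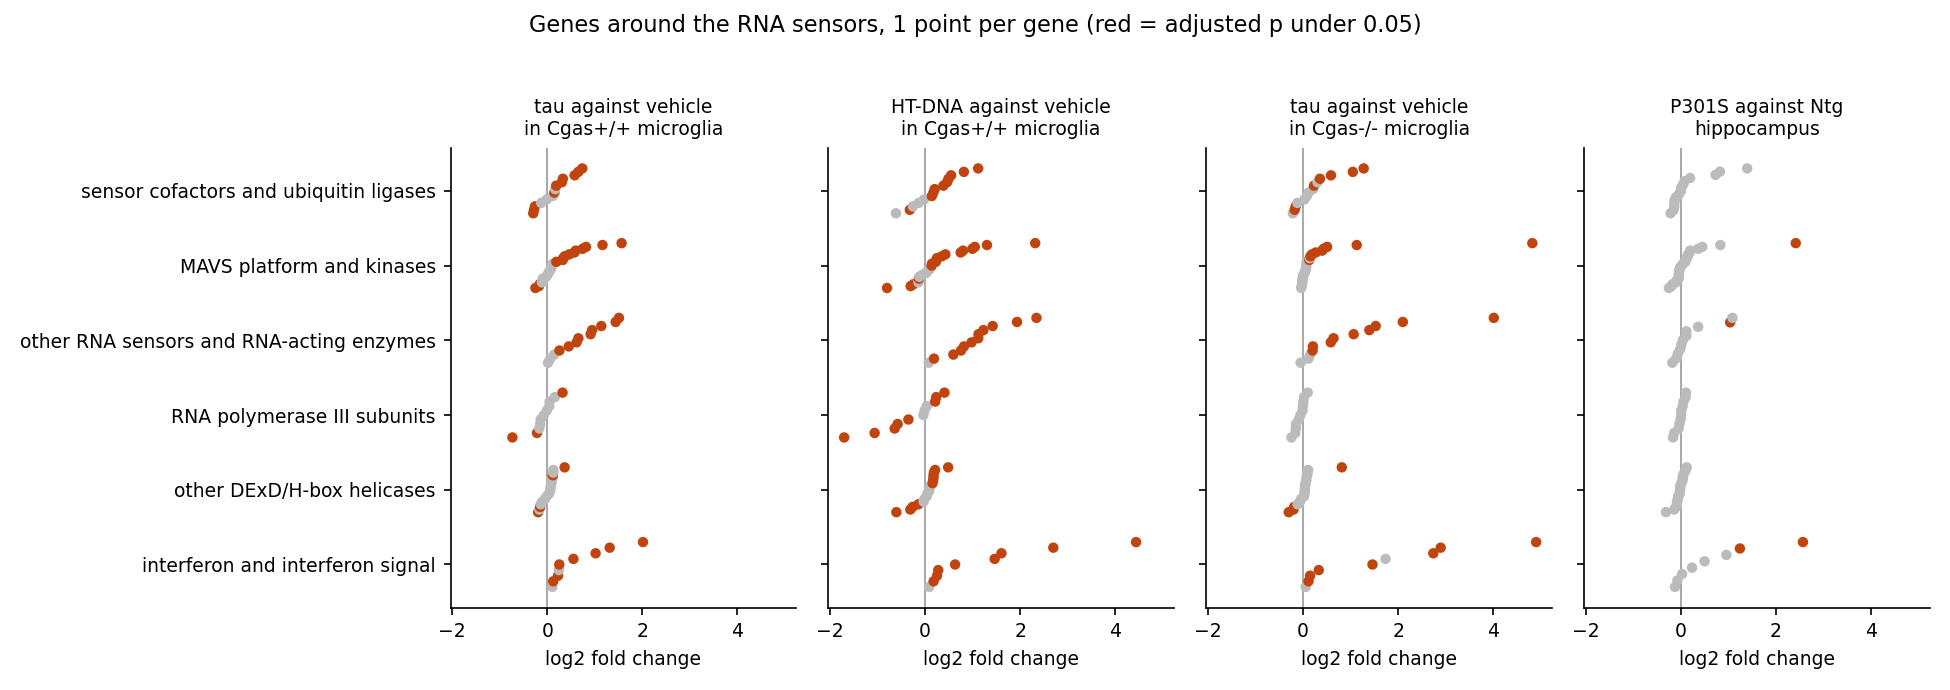
Log2 fold change of each tested gene of the 6 lists around the sensors in 4 comparisons, 1 point per gene, red where the adjusted p was under 0.05 and grey otherwise, with genes of a list spread in order of their fold change. The points farthest to the right with tau in Cgas-/- cells are Isg15 at 4.91, Irf7 of the MAVS platform at 4.83 and Zbp1 at 4.02, and the point farthest to the left is Polr3g at -1.71 with HT-DNA.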

How the data were processed

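RNA was extracted from 13 hippocampi and the microglia of 18 libraries, and libraries were made with a QuantSeq 3′ kit per the labels, so reads fall near the 3′ ends of transcripts. The authors deposited raw counts per gene on GRCm38. The aligner and counter are not given in the sources used here, and edgeR and limma are named in the submitters' processing notes. The counts were fitted with edgeR 4.0.16 in R 4.3.3 (low-count filter, TMM scaling, quasi-likelihood F test, two-sided), in 1 fit over the 6 microglial groups and 1 over the hippocampi. P-values were adjusted by Benjamini-Hochberg over all genes tested, and a gene was called at an adjusted p under 0.05. Normalized CPM are counts over the TMM-scaled library size.

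The members and gene lists were chosen with earlier results of these data known. From each list the called genes with the largest and smallest fold changes in a comparison were named, at most 4, except for some genes not reported here, and a few of these were followed into other comparisons. Alternatives were DESeq2 1.42.0, RLE scaling, no filter, a minimum fold change, fits of the compared groups alone, a replicate block, covariates for sex or homeostatic markers, and leaving out each library. The comparison of *Cgas*-/- cells with tau and *Cgas*+/+ cells with vehicle was added after the levels were seen. On simulated data with 200 changed genes, 83.3% of changes of log2 1.5 were recovered for tau in *Cgas*+/+ cells (13291 genes, 6.43% of calls false) and 91.2% for hippocampi (16310 genes, 8.29% of calls false). Several reported changes were smaller, among them every change of *Mavs* and those of *Ddx58*, *Ifih1* and *Dhx58* in hippocampi. So were those of *Ddx58* and *Dhx58* with tau in *Cgas*+/+ cells. The recovered shares do not apply to such smaller changes, and those of a further simulation at log2 1 are not given here. Simulated samples of a group shared 1 mean per gene, without the split seen among the *P301S* mice. Same-group libraries differed by more than sampling noise throughout, so none was counted as a duplicate.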

Additional observations from a re-analysis of the deposited data

Results flagged for a closer look

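The response to a stimulus differed between *Cgas*+/+ and *Cgas*-/- microglia by a test of the difference itself in 9 cases. Over all genes tested, the interaction was called above 0 for 3.61% with tau and below 0 for 16.6% with HT-DNA. For tau fibrils the interaction on the log2 scale was 1.74 for *Ddx58*, 1.66 for *Dhx58*, 1.09 for *Ddx60*, and 0.88 for *Ifih1*, each a larger fold change in *Cgas*-/- cells. For *Mavs* it was 0.29, between a log2 fold change of -0.16 in *Cgas*+/+ cells and one of 0.13 in *Cgas*-/- cells that was not called. The interaction call of *Mavs* was lost by edgeR with RLE scaling (adjusted p = 0.0542) and without the filter (0.0530). For HT-DNA it was -2.81 for *Ddx60*, -2.25 for *Ifih1*, -1.59 for *Dhx58* and -1.54 for *Ddx58*, each a smaller fold change in *Cgas*-/- cells. The *Cgas*-/- libraries with vehicle, against which these folds are taken, held 5.97 CPM of *Ddx60* and 8.20 CPM of *Dhx58* on average. In CPM the rise of the helicase genes with tau was 24.2% to 47.7% of that in *Cgas*+/+ cells. No hippocampus stood far from the other mice of its group in any of the 10 sets of values tested.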

How the results depend on the processing

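The number of the 5 genes called was within 1.5 times its reported value in 64 of 70 alternatives other than leaving out a library. The exceptions were tau against HT-DNA in *Cgas*+/+ cells and *Cgas*-/- cells with tau against *Cgas*+/+ cells with vehicle, both with 0 called when a log2 change of 1 was required as well, HT-DNA in *Cgas*-/- cells with 2 called without the filter, and hippocampi with 4 by DESeq2 and 0 with either covariate. Leaving out 1 mouse gave 0 to 4 in hippocampi. Leaving out 1 microglial library gave 4 to 5 for tau in *Cgas*+/+ cells, for both interactions, for genotype with tau and for the added comparison, and no change elsewhere. The sign turned for *Dhx58* with HT-DNA in *Cgas*-/- cells (-0.0084 to 0.18 over the 18 fits, below 0 without *Cgas*-/- vehicle replicate 1) and for *Ifih1* in the added comparison (-0.33 to 0.0285, above 0 without *Cgas*+/+ vehicle replicate 1), neither of them called in the reported fit. The call of *Mavs* with tau in *Cgas*+/+ cells was kept only without replicate 2 of *Cgas*+/+ HT-DNA, *Cgas*+/+ tau or *Cgas*-/- HT-DNA (adjusted p = 0.0374 to 0.286 over the 18 fits, edgeR), and that of its tau interaction in 7 of 18 fits. The cause of these changes was not tested.

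Replicate numbers did not pair the microglial libraries, since the correlation of deviations over 45 pairs of equal number was -0.085 to 0.0823. With a replicate block the count of called genes was 5 for tau in *Cgas*+/+ cells, as without it, and was the same in every other microglial comparison. Counts of 3 to 25 per Ntg mouse and 10 to 118 per *P301S* mouse limit *Ddx60* in hippocampi, and 86 to 123 per library in *Cgas*-/- cells with HT-DNA.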
